A study of Mus musculus with 6 samples.

Results

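Of 10 genes of arginine and polyamine metabolism, Sat1 rose and Sms fell in RM-1 mouse prostate cancer cells that overexpressed Bhlhe22. Of the other 8, 7 were tested and did not pass the threshold, which 19.6% of all tested genes passed. The 10 genes are Arg1, Arg2, Ass1 and Asl of arginine use and supply, and Odc1, Amd1, Srm and Sms of polyamine synthesis. They also include Azin1, which controls that synthesis, and Sat1 of polyamine breakdown. They were taken by symbol from a table of 55487 genes, which holds 1 row for each of the 10. RNA-seq had been done on cultured RM-1 cells, a mouse line labelled as prostate cancer, with 3 libraries from cells that received a Bhlhe22-overexpression lentivirus (Bhlhe22 cells) and 3 from cells that received an empty lentiviral vector (vector cells). Both groups are therefore transduced cells of the same line. Nothing in the labels tells whether the 3 libraries of a group came from independent cultures. The p-values below therefore measure only how far these libraries scatter, which may be technical scatter.

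Arginase splits arginine into ornithine and urea. Argininosuccinate synthetase and lyase rebuild arginine from citrulline. Ornithine decarboxylase turns ornithine into putrescine, and the aminopropyl groups that extend putrescine to spermidine and then to spermine come from S-adenosylmethionine after its decarboxylation. Antizymes send ornithine decarboxylase to the proteasome, and antizyme inhibitors oppose them. Spermidine/spermine acetyltransferase marks polyamines for export or oxidation. In tumors, depletion of arginine by arginase of myeloid cells is known to restrain T cells, and proliferating cells in general keep polyamine synthesis active.

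Library totals ran from 15464709 to 25129552 counts. Bhlhe22 had 0 counts in all 3 vector libraries and 572 to 764 CPM (counts scaled to library size with TMM) in the Bhlhe22 libraries, as labelled. Bhlhe22 replicate 1 stood apart from the other 2 Bhlhe22 libraries, with a chi-square per degree of freedom over genes of 34.5 and 46.7 against them, where the other 4 replicate pairs gave 10.7 to 13.5. Of 10 prostate epithelial markers, Krt8, Krt18 and Epcam exceeded a mean of 1 CPM, while Pbsn and Krt5 had 0 counts in every library. Their summed level was 1381 to 1449 CPM in vector and 1129 to 1343 CPM in Bhlhe22 libraries, and Krt8 was lower in Bhlhe22 cells (757 and 545 CPM on average, edgeR adjusted p = 0.00473). Krt18 averaged 665 CPM in both groups (edgeR adjusted p = 0.999) and Epcam 3.99 CPM in both (edgeR adjusted p = 0.982). All 4 mesenchymal markers exceeded 1 CPM, with sums of 2053 to 2215 and 1814 to 1891 CPM. Most of each sum was Vim, which fell from 1658 to 1322 CPM on average (edgeR adjusted p = 0.0232). That call was lost when any 1 library other than Bhlhe22 replicate 1 was left out. Cdh2, Fn1 and Zeb1 did not pass the threshold (edgeR adjusted p = 0.0601, 0.181 and 0.5). Fn1 went the other way from Vim, with 304 and 399 CPM on average (log2 fold change 0.39). The part of these differences in the results was not tested. Since arginase is also a myeloid and a liver enzyme, markers of those cells were read as well. Of 13 leukocyte markers, 8 had 0 counts in every library, among them Itgam, Adgre1, Lyz2, S100a8, Retnla and Chil3. The summed level of the list was 54.8 to 63.9 CPM in vector and 51.7 to 60.8 CPM in Bhlhe22 libraries and came mostly from Cd68 and Ly6g. These went opposite ways within the sum: Ly6g fell from 18.2 ± 1.86 to 7.36 ± 0.61 CPM (SD, n = 3; log2 fold change -1.31, edgeR adjusted p = 0.000728, past the threshold without each library in turn), and Cd68 had 40.9 ± 2.65 and 49.1 ± 4.78 CPM (SD, n = 3; edgeR adjusted p = 0.11). The 5 hepatocyte markers together reached at most 0.33 CPM.

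Among 14663 genes tested across the table, 19.6% passed the threshold (edgeR quasi-likelihood test, Benjamini-Hochberg adjusted p under 0.05), 10.4% as higher and 9.28% as lower in Bhlhe22 cells. Of the 10 genes 9 were tested, with 1 higher, 1 lower and 7 not past the threshold, a share close to that of all genes. Their median log2 fold change was 0.0018, beside 0.0098 over all tested genes. The groups did not overlap for Sat1, Sms and Asl, or 3 of 9 genes, beside 40.8% of the tested genes of the table. Arg2 was left out by the filter on low counts.

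**Figure D1:**
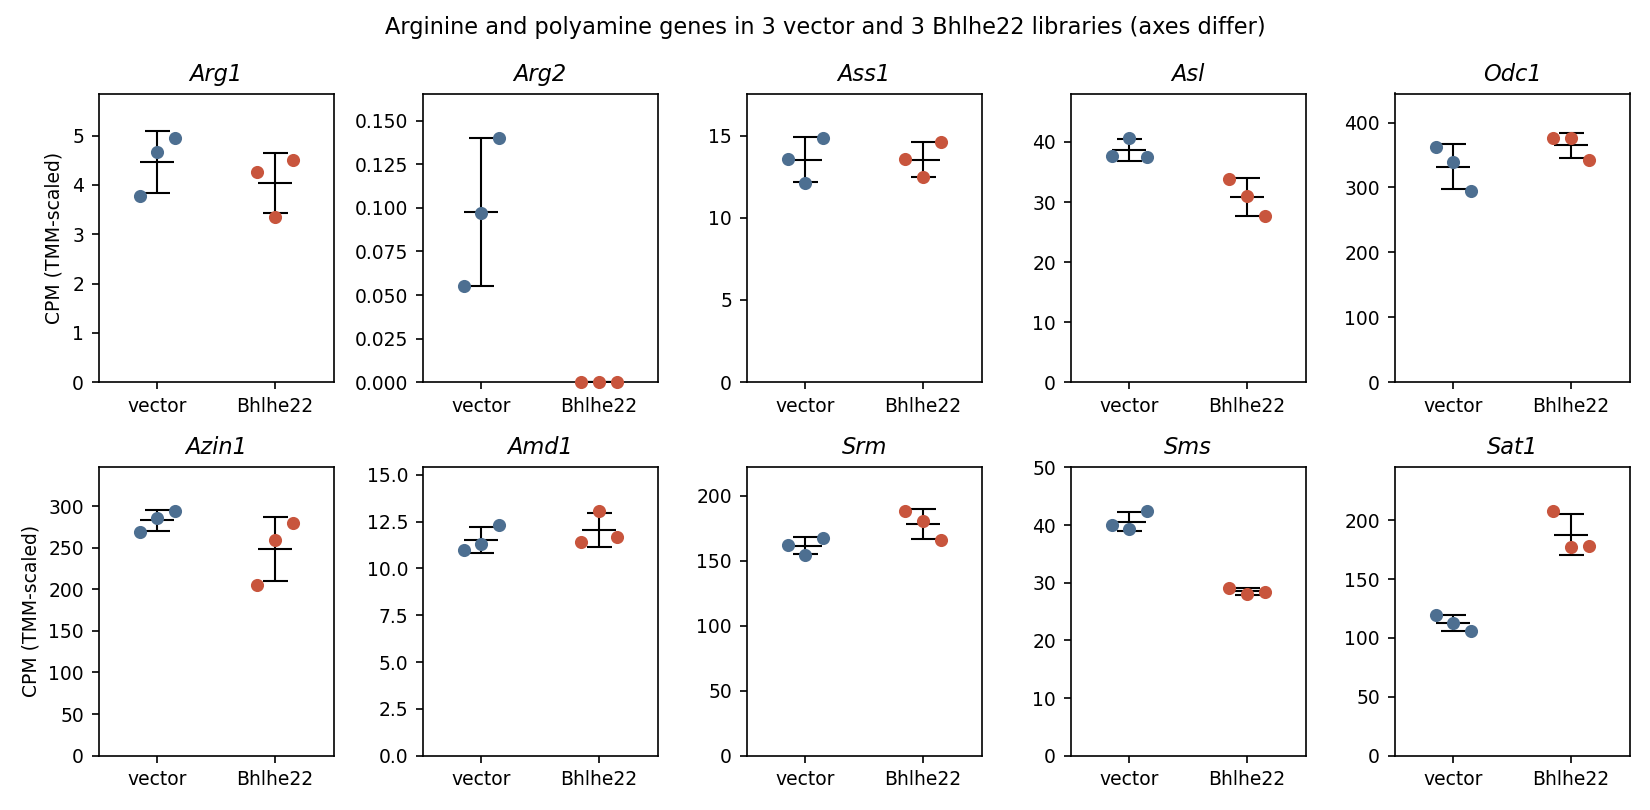
CPM of each of the 10 genes in the 3 vector (blue) and 3 Bhlhe22 (red) libraries, replicates 1 to 3 from left to right, with mean and SD as bars; each panel has its own linear axis from 0. Sat1 sits at 106 to 120 CPM in vector and 177 to 208 CPM in Bhlhe22 libraries, and Sms at 39.4 to 42.4 and 27.99 to 29.1 CPM.

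The promoters of the 2 genes past the threshold are shown because Bhlhe22 is a basic helix-loop-helix factor, a family that binds E-boxes (CANNTG). Each is the 250 bases before a RefSeq start in GRCm38.p6, on the minus strand, 5′ to 3′, with every CANNTG in capitals. The Sat1 stretch lies at chrX:155216450-155216699 and the Sms stretch at chrX:157492288-157492537.
Sat1: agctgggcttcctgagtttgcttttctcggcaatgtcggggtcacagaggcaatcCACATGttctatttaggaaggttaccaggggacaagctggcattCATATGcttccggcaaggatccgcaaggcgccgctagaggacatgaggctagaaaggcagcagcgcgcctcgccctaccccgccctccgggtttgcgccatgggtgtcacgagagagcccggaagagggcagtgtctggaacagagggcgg
Sms: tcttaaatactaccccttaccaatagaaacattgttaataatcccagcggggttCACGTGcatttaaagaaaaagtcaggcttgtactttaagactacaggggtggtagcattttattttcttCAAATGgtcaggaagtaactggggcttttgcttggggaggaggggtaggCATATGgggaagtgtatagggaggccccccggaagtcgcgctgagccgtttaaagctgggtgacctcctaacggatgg
The Sat1 stretch holds 2 E-boxes and the Sms stretch 3. One in each is CATATG, the form bound by Bhlhe22 and its Olig-family relatives, which begins 151 bases before the Sat1 start and 78 bases before the Sms start. CATATG was found, both strands being the same for this palindrome, in 3.46% of 32851 promoter stretches of the same length, and any CANNTG in 66.2%. The Sms stretch also has a CACGTG, the form bound by MYC and MAX, 196 bases before the start, and 6.02% of all stretches have one. A second RefSeq start of Sms further into the gene has a stretch of 75.2% GC with no CANNTG. Of the 10 genes 5 had a promoter in the table. Among those not past the threshold Ass1 had a CACGTG 36 bases before its start, which is also counted among its 2 CANNTG matches, Amd1 had 1 CANNTG of another form and Odc1 none. None of these stretches held TGATGNAA, the composite site of ATF4, or TGACNNNGC, the core of the antioxidant response element, on either strand. These are matches of letters and show no binding.

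Sat1 encodes spermidine/spermine acetyltransferase, the rate-limiting enzyme of polyamine breakdown (ENSMUSG00000025283, chromosome X from 155213132 to 155216449, minus strand, GRCm38, 6 exons in its longest coding transcript). It had 119.7, 112.7 and 106.0 CPM in vector replicates 1, 2 and 3 and 207.8, 177.1 and 178.0 CPM in Bhlhe22 replicates 1, 2 and 3. Every Bhlhe22 library was above every vector library, and Bhlhe22 replicate 1 was the highest. The means were 113 ± 6.86 and 188 ± 17.5 CPM (SD, n = 3), a 1.66-fold rise (log2 fold change 0.73, SE 0.09, 95% interval 0.52 to 0.95, edgeR adjusted p = 0.00204). Without Bhlhe22 replicate 1 the log2 fold change was 0.65 and the edgeR adjusted p = 0.000175, and over the 6 fits that each left out 1 library it ranged from 0.65 to 0.78 with the gene past the threshold in all 6. In bulk RNA, more cells with the transcript and more transcript per cell cannot be told apart. Of the 7 Sat1 transcripts in GENCODE M21, 2 are annotated as protein coding, 4 as retained intron and 1 as a target of nonsense-mediated decay, and gene counts do not separate them.

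Sms encodes spermine synthase, which adds the last aminopropyl group to spermidine (ENSMUSG00000071708, chromosome X from 157443855 to 157492287, minus strand, 11 exons). It had 40.0, 39.4 and 42.4 CPM in vector replicates 1, 2 and 3 and 29.1, 27.99 and 28.4 CPM in Bhlhe22 replicates 1, 2 and 3. The lowest vector library was well above the highest Bhlhe22 library. The mean fell from 40.6 ± 1.62 to 28.5 ± 0.564 CPM (SD, n = 3; log2 fold change -0.51, SE 0.08, 95% interval -0.69 to -0.33, edgeR adjusted p = 0.00449). The log2 fold change was -0.53 without Bhlhe22 replicate 1 and stayed between -0.53 and -0.48 in the 6 fits that left out 1 library, past the threshold in all 6.

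The counts of Sms are a minor part of the counts given to Sms-like sequence. A processed pseudogene, Sms-ps (chromosome X from 62775585 to 62776685), matches the Sms transcript with 100% identity over 1101 bases and had more counts than the gene itself. Sms-ps had 81.2, 82.6 and 85.6 CPM in vector and 70.8, 64.8 and 64.2 CPM in Bhlhe22 replicates 1, 2 and 3. It was lower in all Bhlhe22 than in all vector libraries (edgeR log2 fold change -0.32 with SE 0.07, adjusted p = 0.0222), and whether this change differs from that of Sms was not tested. Leaving out any 1 library other than Bhlhe22 replicate 1 lost this call, with an edgeR adjusted p of up to 0.0931. The Sms row held 32.1% to 33.1% of the counts of the gene and its 3 near-identical copies in vector libraries and 29.0% to 30.5% in Bhlhe22 libraries. With gene and copies summed, the level was 124 ± 3.54 CPM in vector and 95.5 ± 4.18 CPM in Bhlhe22 cells (SD, n = 3; log2 fold change -0.38, SE 0.07, edgeR adjusted p = 0.00887), an alternative chosen after seeing the data. Reads from the identical stretch cannot be assigned to the gene or the pseudogene from these counts, so the log2 fold change was -0.51 by the Sms row and -0.38 by the sum, in the same direction.

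**Figure D2:**
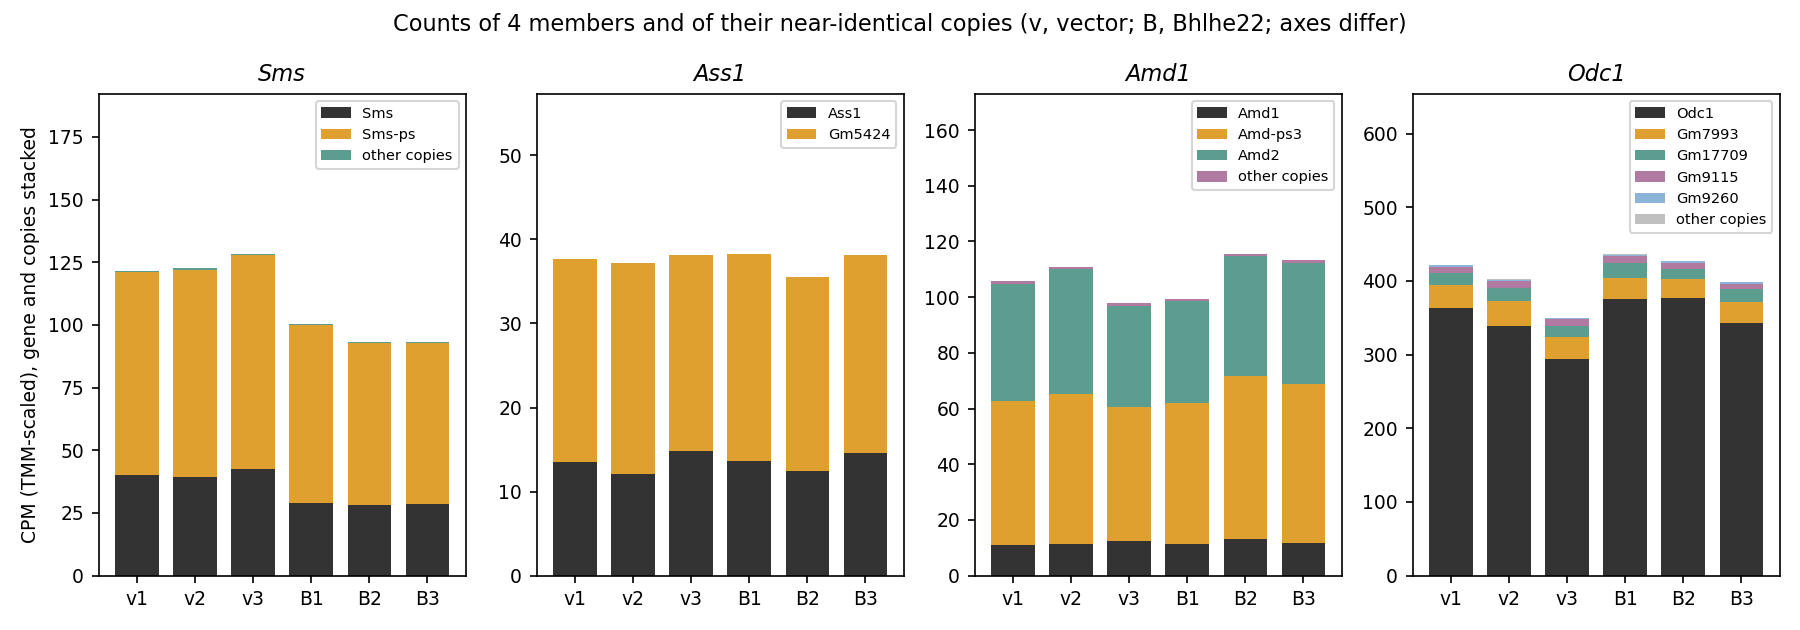
TMM-scaled CPM of Sms, Ass1, Amd1 and Odc1 (dark bars) with those of their near-identical copies stacked above, for vector (v1 to v3) and Bhlhe22 (B1 to B3) libraries; copies under a mean of 1 CPM are pooled. The stacks for Sms are 122 to 128 CPM in vector and 93.1 to 100.3 CPM in Bhlhe22 libraries, most of it from Sms-ps.

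The other enzymes of polyamine synthesis did not pass the threshold. Odc1, the ornithine decarboxylase that opens the pathway (ENSMUSG00000011179, chromosome 12 from 17544794 to 17551505, plus strand), had 363, 339 and 294.5 CPM in vector and 376, 377 and 343 CPM in Bhlhe22 replicates 1, 2 and 3. The ranges overlapped between 343 and 363 CPM, and the log2 fold change was 0.14 (95% interval -0.08 to 0.36, edgeR adjusted p = 0.355), so a rise above 1.28-fold or a fall below 0.944 of the vector level lay outside the interval. Odc1 has 6 near-identical copies, of which Gm7993 was the most counted, and the Odc1 row held 84.0% to 88.2% of their common counts. With them summed the log2 fold change was 0.10 (edgeR adjusted p = 0.457).

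Amd1, the S-adenosylmethionine decarboxylase that supplies aminopropyl groups (ENSMUSG00000075232, chromosome 10 from 40287458 to 40302188, minus strand), had 10.97, 11.3 and 12.3 CPM in vector and 11.4, 13.1 and 11.7 CPM in Bhlhe22 replicates 1, 2 and 3. The groups overlapped (log2 fold change 0.06, 95% interval -0.19 to 0.31, edgeR adjusted p = 0.727). The Amd1 row held 10.2% to 12.6% of the counts of the family. Amd2, a single-exon coding copy with 99.6% identity over 3202 bases, had 36.4 to 44.9 CPM, and the pseudogene Amd-ps3, with 99.9% identity over 1005 bases, had 48.3 to 58.5 CPM. Summed over Amd1 and its 5 copies the level was 105 ± 6.49 CPM in vector and 109 ± 8.79 CPM in Bhlhe22 cells (SD, n = 3; log2 fold change 0.06, 95% interval -0.14 to 0.27, edgeR adjusted p = 0.668).

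Srm, the spermidine synthase (ENSMUSG00000006442, chromosome 4 from 148591503 to 148594993, plus strand), had 162, 154.5 and 168 CPM in vector and 188, 181 and 166 CPM in Bhlhe22 replicates 1, 2 and 3. Bhlhe22 replicates 1 and 2 were above all vector libraries and replicate 3 was within their range (log2 fold change 0.14, 95% interval -0.03 to 0.32, edgeR adjusted p = 0.236). Srm had no near-identical copy by the criteria used.

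Azin1, the antizyme inhibitor that protects ornithine decarboxylase (ENSMUSG00000037458, chromosome 15 from 38487427 to 38519266, minus strand), had 269, 285.5 and 294 CPM in vector and 205, 259 and 279 CPM in Bhlhe22 replicates 1, 2 and 3. Bhlhe22 replicate 1 was the lowest, and Bhlhe22 replicate 3 was within the vector range. The log2 fold change was -0.19 (95% interval -0.47 to 0.09, edgeR adjusted p = 0.306) and -0.08 without Bhlhe22 replicate 1. An antisense gene on the other strand shares 5.72% of the exon length of Azin1, and the sources used here do not state whether counting used strand.

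Of the arginases, Arg1, the cytosolic enzyme of liver and of suppressive myeloid cells (ENSMUSG00000019987, chromosome 10 from 24915221 to 24927484, minus strand), was low in both groups. Its counts were 68, 96 and 106 in vector and 65, 65 and 113 in Bhlhe22 replicates 1, 2 and 3, or 3.77, 4.66 and 4.96 and 4.27, 3.36 and 4.50 CPM. The groups overlapped over most of their range (log2 fold change -0.14, SE 0.18, edgeR adjusted p = 0.628). At this depth the 95% interval of -0.56 to 0.28 allows a change to between 0.676 and 1.21 of the vector level. Arg2, the mitochondrial arginase (ENSMUSG00000021125, chromosome 12 from 79130777 to 79156301, plus strand), had 1, 2 and 3 counts in vector replicates 1, 2 and 3 and 0 in all Bhlhe22 libraries. Both groups were at or under the limit of 3 counts that a count of 0 allows, 0.119 to 0.197 CPM per library for counting error alone, so a difference in Arg2 was not detectable at this depth. Genes on the other strand also share 28.1% of its exon length.

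Ass1 and Asl rebuild arginine from citrulline, and cells that lack Ass1 are known to need arginine from outside. Ass1, the argininosuccinate synthetase (ENSMUSG00000076441, chromosome 2 from 31470207 to 31520672, plus strand), had 13.6, 12.1 and 14.9 CPM in vector and 13.6, 12.5 and 14.6 CPM in Bhlhe22 replicates 1, 2 and 3. The ranges nearly coincided (log2 fold change 0.0018, 95% interval -0.27 to 0.28, edgeR adjusted p = 0.995), with a sign that depends on the scaling and the test. The pseudogene Gm5424, with 99.5% identity over 1240 bases, had 23.1 to 25.1 CPM, more than Ass1. The sum of both was 37.7 ± 0.423 CPM in vector and 37.3 ± 1.53 CPM in Bhlhe22 cells (SD, n = 3; log2 fold change -0.01, 95% interval -0.19 to 0.16, edgeR adjusted p = 0.924).

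Asl, the argininosuccinate lyase (ENSMUSG00000025533, chromosome 5 from 130011258 to 130029247, minus strand), had 37.7, 40.7 and 37.6 CPM in vector and 33.9, 31.0 and 27.6 CPM in Bhlhe22 replicates 1, 2 and 3. All Bhlhe22 values were below all vector values, with means of 38.7 ± 1.78 and 30.9 ± 3.16 CPM (SD, n = 3). The log2 fold change of -0.33 (SE 0.10, 95% interval -0.56 to -0.09) did not pass the threshold (edgeR adjusted p = 0.0586). It passed with DESeq2 (adjusted p = 0.0277), with scaling by library size alone in edgeR (adjusted p = 0.0435), with limma on log2 FPKM (adjusted p = 0.0492) and without Bhlhe22 replicate 1 (log2 fold change -0.41, edgeR adjusted p = 0.00821), while the edgeR adjusted p was 0.131 to 0.185 without any other 1 library. Asl did not pass with limma-voom (adjusted p = 0.0519) or, in edgeR, with RLE scaling (adjusted p = 0.0554) or without robust estimation (adjusted p = 0.0589). Nor did Asl pass in edgeR without the filter on low counts (adjusted p = 0.084) or with a replicate block (adjusted p = 0.0944).

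Levels per length were read from the FPKM as deposited (fragments scaled to a gene length and library size). The length that follows from counts and FPKM exceeds the exon length of Odc1 (3405 bases) and Sat1 (2774 bases), and the excess differs between genes. The order of genes below therefore depends on these lengths and is not a measured order of transcript levels. By deposited FPKM the order in vector cells began with Srm (83.7 ± 3.40 FPKM, SD, n = 3), Odc1 (48.4 ± 5.03), Sat1 (23.2 ± 1.39) and Azin1 (22.01 ± 1.01). Then came Asl (5.86 ± 0.274), Sms (5.38 ± 0.215), Ass1 (4.60 ± 0.466), Amd1 (2.31 ± 0.141), Arg1 (1.71 ± 0.24) and Arg2 (0.0688 ± 0.03). Of these neighbours, Sat1 and Azin1 overlapped in FPKM in vector cells, with ranges of 21.8 to 24.6 and 20.9 to 22.9 FPKM. In Bhlhe22 cells Sat1 was at 35.8 to 41.8 FPKM and Azin1 at 15.6 to 21.6 FPKM, without overlap. There Sms (3.65 to 3.77 FPKM) ranked below Ass1 (4.17 to 4.92 FPKM), which overlapped with Asl (4.15 to 5.02 FPKM). Among the tested genes Srm ranked 531 and Odc1 930 by mean FPKM, and Arg1 ranked 10597. The FPKM of Sms, Ass1 and Amd1 leave out the counts given to their copies.

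**Figure D3:**
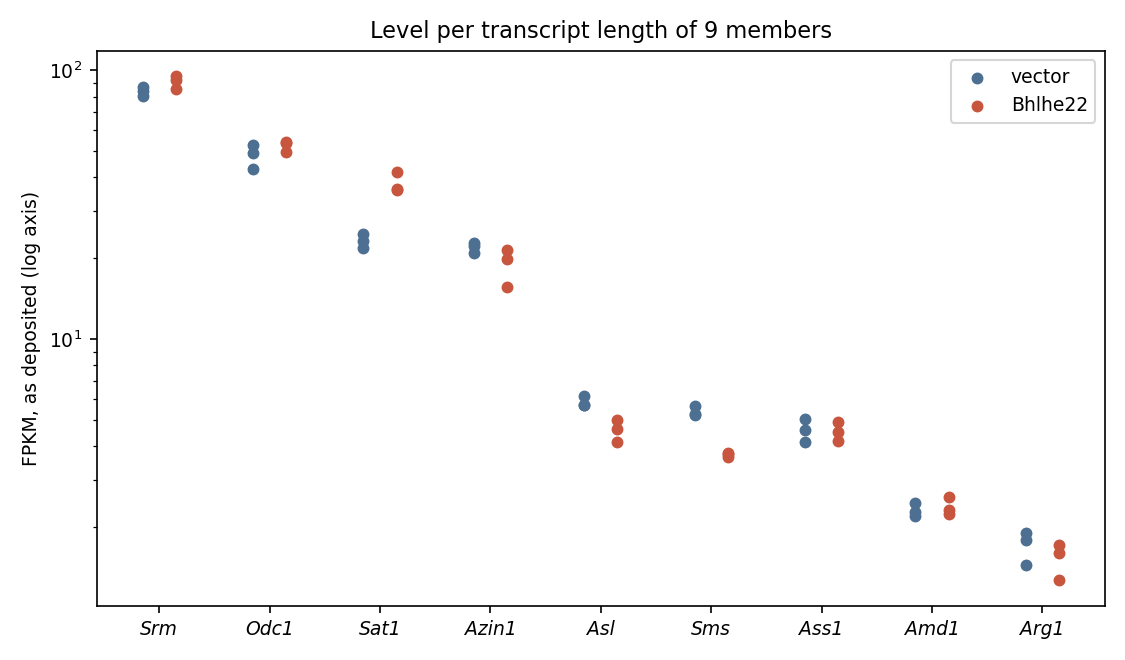
FPKM of 9 genes as deposited, on a log axis, in vector (blue) and Bhlhe22 (red) libraries, ordered by the vector mean. Arg2 is not drawn because it is at 0 in Bhlhe22 libraries. Heights of different genes depend on the length behind each FPKM. Srm and Odc1 stand above 42 FPKM in every library, and the groups are apart for Sat1, Asl and Sms.

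The wider pathway, 47 further genes in 6 groups, had 36 tested genes, of which 5 were higher (13.9%), 7 lower (19.4%) and 24 not past the threshold. Their median log2 fold change was -0.02. Beside the 10.4% and 9.28% of all tested genes, the share of lower genes was the farther from the background. The count of lower genes depended on single libraries: 1 to 4 were lower when any 1 library other than Bhlhe22 replicate 1 was left out. Without Bhlhe22 replicate 1 there were 10. The number of genes past the threshold across the table moved in the same fits. From 2881 with all libraries it went to between 1348 and 2227, and to 4682 without Bhlhe22 replicate 1.

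Within the wider pathway list, the largest change that held without each library in turn was on the route from glutamate to proline. This route shares an intermediate with ornithine metabolism. Pycr1, the mitochondrial reductase that completes proline synthesis, had 17.8, 19.5 and 19.0 CPM in vector and 48.4, 38.5 and 36.4 CPM in Bhlhe22 replicates 1, 2 and 3. Each Bhlhe22 library was far above the vector libraries (log2 fold change 1.13, SE 0.12, edgeR adjusted p = 0.00132). Aldh18a1, the synthase that makes the shared intermediate from glutamate, rose from 326 ± 5.49 to 493 ± 20.6 CPM (SD, n = 3; log2 fold change 0.60, SE 0.07, edgeR adjusted p = 0.00126). Oat, the aminotransferase that links ornithine to this intermediate, fell from 127 ± 2.25 to 102 ± 6.15 CPM (SD, n = 3; log2 fold change -0.31, edgeR adjusted p = 0.0219). The call of Oat was lost when any 1 library other than Bhlhe22 replicate 1 was left out (edgeR adjusted p of up to 0.0939). Pycr3, a paralog of Pycr1, did not pass the threshold (log2 fold change 0.20), and Prodh was not tested, so 2 of 5 tested genes of this group were higher and 1 lower, beside 10.4% and 9.28% of all tested genes.

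Among 8 tested antizymes, oxidases and polyamine transporters, 1 passed the threshold, as higher (12.5%, beside 10.4% of all tested genes). Oaz2, an antizyme, rose from 62.6, 55.8 and 60.5 CPM to 89.4, 84.1 and 75.8 CPM (edgeR log2 fold change 0.48 with SE 0.09, adjusted p = 0.0111), with all Bhlhe22 libraries above all vector libraries. It did not pass the threshold without vector replicate 2 (edgeR adjusted p = 0.0566), and the sum with its pseudogene gave a log2 fold change of 0.46 (edgeR adjusted p = 0.00783). Oaz1, the main antizyme, had 76.8, 71.3 and 79.4 CPM in vector and 60.3, 100 and 54.3 CPM in Bhlhe22 replicates 1, 2 and 3. Bhlhe22 replicate 2 was high for Oaz1 (log2 fold change -0.08, edgeR adjusted p = 0.832), and without it the log2 fold change was -0.40 (edgeR adjusted p = 0.0522). The pseudogene Oaz1-ps, 99.3% identical over 685 bases, had more counts than Oaz1, at 207 to 223 CPM in vector and 159 to 182 CPM in Bhlhe22 libraries, and was past the threshold as lower (log2 fold change -0.32, edgeR adjusted p = 0.029). That call was lost when any 1 library other than Bhlhe22 replicate 1 was left out (edgeR adjusted p of up to 0.111), and the sum of Oaz1 and Oaz1-ps had a log2 fold change of -0.26 (edgeR adjusted p = 0.14). Smox, the spermine oxidase, had 19.7, 26.8 and 22.2 CPM in vector and 32.5, 33.5 and 27.9 CPM in Bhlhe22 replicates 1, 2 and 3, and these groups did not overlap. Its log2 fold change of 0.45 did not pass the threshold (edgeR adjusted p = 0.0577), except with DESeq2 (adjusted p = 0.0311) and without vector replicate 2 (edgeR adjusted p = 0.0449). Paox, the oxidase of acetylated polyamines that acts after Sat1, had 11.3 ± 0.61 and 10.3 ± 1.2 CPM (SD, n = 3; log2 fold change -0.13, edgeR adjusted p = 0.511), and a near-identical pseudogene held about as many counts.

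Among 9 tested genes of arginine transport and use, 1 was higher (11.1%, beside 10.4% of all tested genes) and 2 were lower (22.2%, beside 9.28%). Slc7a1, the main arginine transporter of most cells, had 436, 450 and 447 CPM in vector and 412, 605 and 594 CPM in Bhlhe22 replicates 1, 2 and 3. Bhlhe22 replicate 1 was below the vector libraries and the other 2 were above them (log2 fold change 0.27, edgeR adjusted p = 0.235), and without that library the edgeR adjusted p was 0.000173. Its relative Slc7a3 was barely expressed, with 20, 16 and 16 counts in vector and 38, 53 and 32 in Bhlhe22 replicates 1, 2 and 3 (log2 fold change 1.29, edgeR adjusted p = 0.0431). That call was lost when any 1 library other than Bhlhe22 replicate 3 was left out (edgeR adjusted p of up to 0.141), and with limma-voom (adjusted p = 0.0737) and limma on log2 FPKM (adjusted p = 0.0693). Ddah1, which degrades methylated arginine, fell from 33.1 ± 2.98 to 23.1 ± 1.6 CPM (SD, n = 3; log2 fold change -0.52, edgeR adjusted p = 0.013), and leaving out vector replicate 2 gave an edgeR adjusted p of 0.0558. Gatm, which uses arginine for creatine synthesis, fell from 113 ± 5.86 to 83.5 ± 5.4 CPM (SD, n = 3; log2 fold change -0.43, edgeR adjusted p = 0.00976), and the adjusted p became 0.0531 when vector replicate 1 was left out and 0.0533 when vector replicate 2 was. The nitric oxide synthases Nos1, Nos2 and Nos3 were at or below 8.68 CPM in every library and did not pass the threshold, although Nos2 did without Bhlhe22 replicate 1 (edgeR adjusted p = 0.0352).

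Of the rest of the urea cycle, Otc had 0 counts in every library, and Cps1 and Nags had at most 3 in any library. Slc25a13, the mitochondrial aspartate carrier that supplies argininosuccinate synthesis, fell from 120.9, 127.2 and 122.5 CPM to 79.3, 83.0 and 88.1 CPM (edgeR log2 fold change -0.57 with SE 0.07, adjusted p = 0.00203). Every Bhlhe22 value was below every vector value, and the call held without each library in turn. The ornithine carrier Slc25a15 had a log2 fold change of -0.25 (edgeR adjusted p = 0.0892).

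Of 8 tested genes of S-adenosylmethionine supply and methionine salvage, which recovers the by-product of both aminopropyl transfers, 1 was higher (12.5%, beside 10.4% of all tested genes) and 3 were lower (37.5%, beside 9.28%). Adi1, a dioxygenase of the salvage route, rose from 75.2, 73.1 and 70.1 CPM to 95.3, 93.5 and 96.2 CPM (log2 fold change 0.38, edgeR adjusted p = 0.00755) and held without each library in turn. Mtap, the phosphorylase that opens the route, fell from 176 ± 5.47 to 144 ± 3.84 CPM (SD, n = 3; log2 fold change -0.29, edgeR adjusted p = 0.0206), and Enoph1, a later enzyme, had a log2 fold change of -0.52 (edgeR adjusted p = 0.0461). Mat2b, the regulatory subunit of methionine adenosyltransferase, had a log2 fold change of -0.32 (edgeR adjusted p = 0.0186), and Mat2a, the catalytic subunit, of -0.01 (edgeR adjusted p = 0.947). The calls of Mtap and Enoph1 were lost when any 1 library other than Bhlhe22 replicate 1 was left out (edgeR adjusted p of up to 0.0932 and 0.15), and that of Mat2b without vector replicate 1 or 2 or Bhlhe22 replicate 2 or 3. None of the 4 genes of hypusination, the modification of eIF5A that uses spermidine, passed the threshold, with a median log2 fold change of -0.22. None passed with DESeq2 or limma-voom. Eif5a2 had a log2 fold change of -0.53 (edgeR adjusted p = 0.108). Eif5a and Dohh passed the adjusted threshold without Bhlhe22 replicate 1 (edgeR adjusted p = 0.00219 and 0.025). In that fit 4682 genes across the table passed, beside 2881 with all libraries. Another gene on the same strand, Gm48551, shares 47.5% of the exon length of Dohh. With all libraries, Dohh had a log2 fold change of -0.24 (edgeR adjusted p = 0.216). Summed with Gm48551 it was -0.19 (edgeR adjusted p = 0.371).

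**Figure D4:**
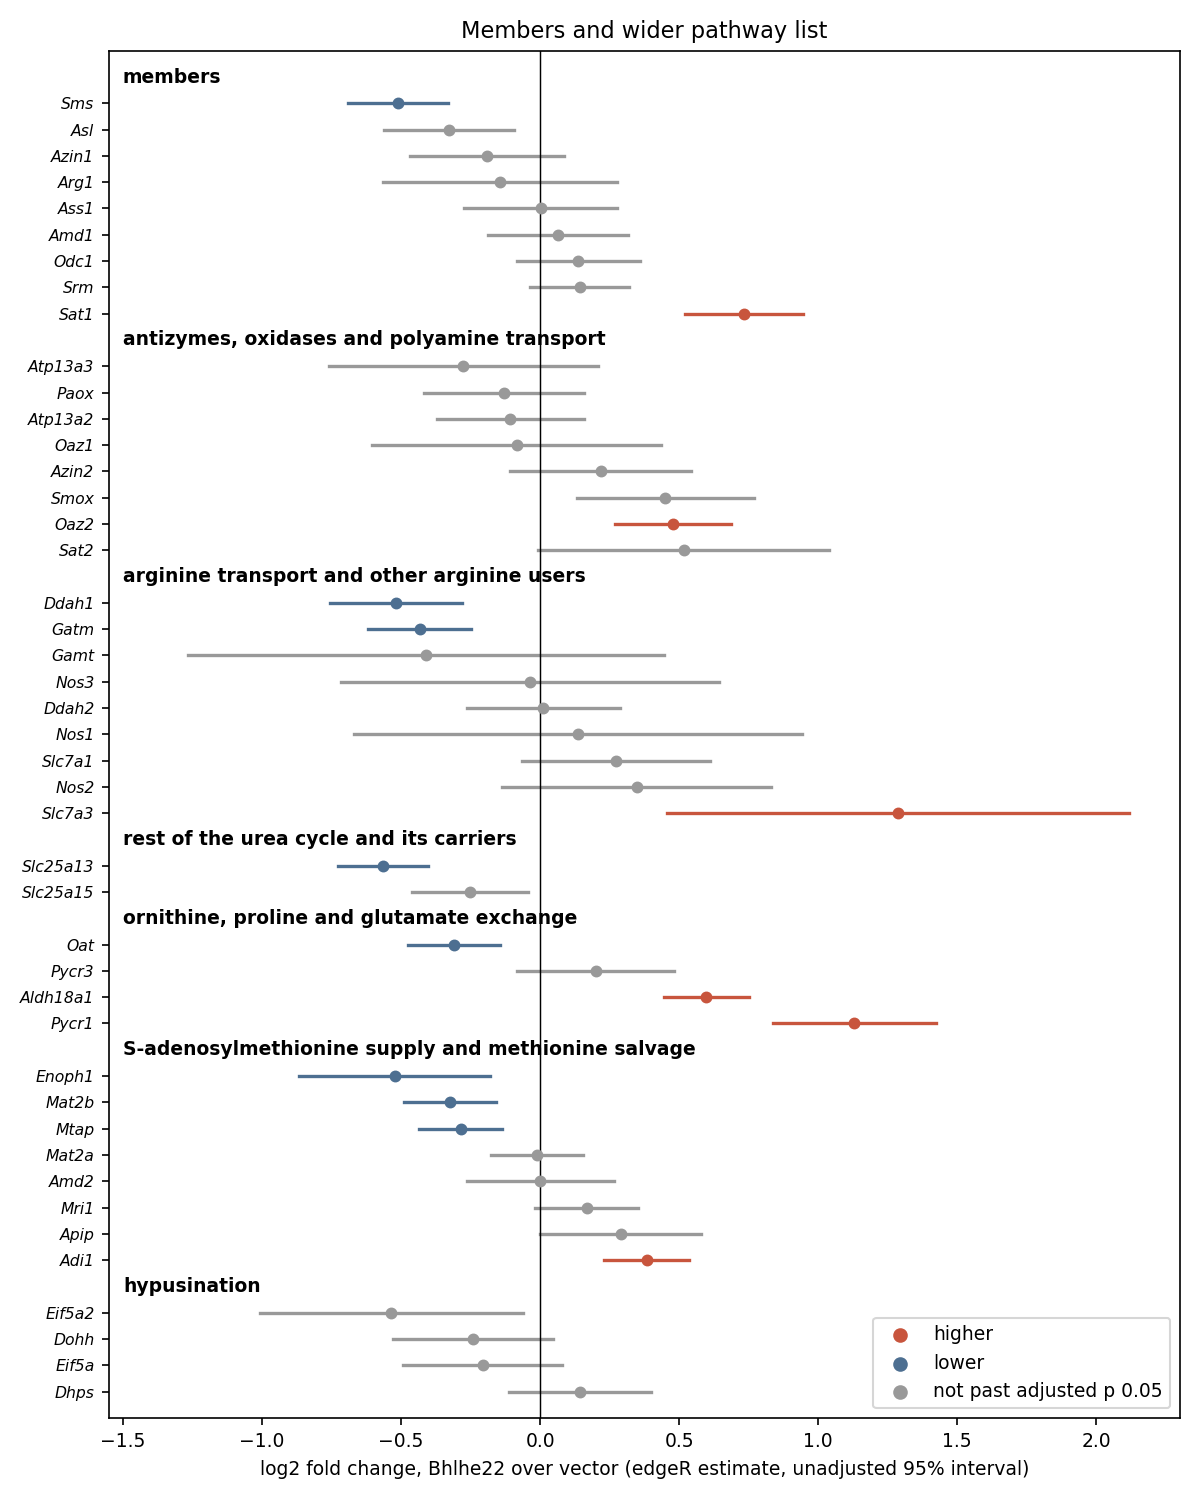
edgeR log2 fold change of Bhlhe22 over vector cells with its unadjusted 95% interval for the 9 tested genes and 35 of the 36 tested genes of the wider pathway, by group; red is higher, blue lower, and grey not past the adjusted threshold. Pycr1 (1.13), Sat1 (0.73) and Aldh18a1 (0.60) lie to the right of 0 and Slc25a13 (-0.57) and Sms (-0.51) to the left.

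Transcription factors known to act on these genes were read beside them, with no claim of control. Of 11 tested, 2 passed the threshold, both as higher (18.2%, beside 10.4% of all tested genes higher and 9.28% lower). Myc, a known activator of Odc1 and Srm, had 12.9, 15.2 and 10.4 CPM in vector and 19.4, 15.4 and 11.5 CPM in Bhlhe22 replicates 1, 2 and 3, with overlapping groups (log2 fold change 0.26, edgeR adjusted p = 0.447). Mycl, its relative, had 0, 3 and 2 counts in vector and 12, 16 and 37 in Bhlhe22 replicates 1, 2 and 3 and was past the threshold (edgeR adjusted p = 0.00844), at levels under 1.5 CPM. Cebpb, a factor of inflammatory and stress responses, rose from 212 ± 16.2 to 287 ± 29.8 CPM (SD, n = 3; log2 fold change 0.44, edgeR adjusted p = 0.0223), and its call was lost without vector replicate 1 or 2 or Bhlhe22 replicate 2 or 3. Nfe2l2, which encodes NRF2, a known activator of Sat1, had 160 ± 6.07 and 155 ± 3.15 CPM (SD, n = 3; log2 fold change -0.05, edgeR adjusted p = 0.664). Atf4 had 490, 1087 and 702 CPM in vector and 637, 1283 and 720 CPM in Bhlhe22 replicates 1, 2 and 3, with replicate 2 the highest in both groups (log2 fold change 0.21, edgeR adjusted p = 0.73).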

How the data were processed

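Raw counts per gene were deposited by the authors for 6 libraries, beside FPKM values that the authors made from them (for all 10435 genes that reached 100 counts in each library, counts and FPKM gave the same length within 0.01%). CASAVA 1.8, HISAT2 2.1.0, StringTie 1.3.4b, edgeR and the build GRCm38 are named, without roles, in the submitters' processing notes. Not given in the sources used here: annotation release, strandedness and treatment of multiply mapped reads. From the deposited counts, Bhlhe22 and vector libraries were compared with edgeR 4.0.16 (R 4.3.3, TMM scaling, filterByExpr with minimum count 10 and total 15, robust quasi-likelihood test, two-sided, no covariate), with p-values adjusted over all 14663 tested genes; 95% intervals are not adjusted. Near-identical copies were found with blastn 2.17.0 (longest coding transcript against GENCODE M21 transcripts, at least 95% identity over 300 bases, same orientation). Exon overlaps came from the same release; 55141 of 55487 identifiers were in it. Pycr3 is Pycrl in the table. Promoters were from RefSeq (GRCm38.p6). Alternatives were DESeq2 1.42.0, limma-voom and limma on log2(FPKM + 1) (limma 3.58.1), RLE and library size scaling, no filter, no robust estimation, a replicate block and leaving out each library. The genes and lists were chosen with earlier results of these data known; all 10 genes, every wider-list or regulator gene past the threshold and Myc are named, and others named were chosen after their values were seen. A few genes of the lists are not reported here by name. Plots used matplotlib 3.10.9.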

Additional observations from a re-analysis of the deposited data

How the results depend on the processing

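Sat1 stayed higher and Sms lower, both past the threshold, under every alternative run: DESeq2, limma-voom, limma on log2 FPKM, RLE and library size scaling, no filter, no robust estimation, the replicate block, summed copies and each of the 6 fits without 1 library. The number of lower genes among the 10 was 2 in place of 1, through Asl, with DESeq2, library size scaling and log2 FPKM, and 1 to 2 without each library. Without each library the number of genes past the threshold across the table ranged from 1348 to 4682 (2881 with all 6), that of higher genes of the wider pathway from 4 to 7 and that of lower ones from 1 to 10. The sign of Ass1 was negative with DESeq2 (-0.0042), RLE scaling (-0.0033), library size scaling (-0.0198), log2 FPKM (-0.0159) and summed copies (-0.0144), and its log2 fold change was -0.0711 to 0.0758 without each library. No pairing by replicate number was seen over all genes. Same-numbered libraries deviated from their group means with correlations of 0.0156 to 0.0293, and vector replicate 1 correlated best with another number. Correlations over all genes cannot exclude a shared day or culture that acts on some genes. With the replicate block the wider pathway had 4 lower genes in place of 7, Mat2b (adjusted p = 0.0571), Mtap (0.0672) and Oat (0.058) not passing, and the table had 2079 genes past the threshold. No scaling moved the median log2 fold change of all genes by over 0.1. Depth limits Arg2, Slc7a3 and Mycl, and near-identical copies limit Sms, Ass1, Amd1, Oaz1 and Paox.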
